A study of Mus musculus with 6 samples.

Results

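Naaa, Pdia5, P3h2, Akr1b8, Plpp1, Hepacam2, Gpr141b, Gcsam, Snx22 and Apol7c are 10 genes that were picked as high in type 1 conventional dendritic cells (cDC1) and little described in dendritic cells. Each is measured by 1 probe set that carries its symbol alone, so the 10 genes rest on 10 of the 28853 probe sets and stand among 19938 genes. They were chosen from the excess of cDC1 over the other cells, with no stated minimum, so that excess is described here without a test. The difference between the 2 type 2 (cDC2) populations is not named in the choice and was tested. The genes were chosen with earlier results of these data known, so this test may not be independent of the choice.

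Spleens of wild-type mice gave the dendritic cells, which were sorted into 3 populations and measured on 6 Affymetrix arrays, 2 for each population. These are cDC1 that carry CD24, cDC2 that carry both CD24 and CD172a, and cDC2 that carry CD172a without CD24. No treatment and no altered allele are given for any group, and neither age, sex nor the number of animals behind an array is stated in the labels. The p-values therefore measure the spread between these arrays, which may be technical.

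The arrays had median intensities from 29.5 to 30.6, and replicate arrays correlated at 0.992 to 0.993 across genes. Sirpa, which encodes CD172a, read 4.97 and 5.39 (log2 intensity) in cDC1 and 10.01 to 10.27 in the 4 cDC2 arrays, and Cd24a read 11.83 and 11.66 in cDC1, 10.94 and 10.82 in CD24+CD172a+ cDC2, and 8.68 and 8.97 in CD24-CD172a+ cDC2. Of 10 cDC1 markers, 10 were higher in cDC1 than in CD24+CD172a+ cDC2 and 9 than in CD24-CD172a+ cDC2, with Batf3 not called in the second case. Of 10 cDC2 markers, 9 and 10 were lower in cDC1. The mean log2 level of 7 T cell, 6 NK cell, 4 erythroid and 7 epithelial markers lay below the arrays' median (4.88 to 4.93) in every population. These means hide brighter markers. In each population, 5 of the T cell, 4 of the NK cell, 2 of the erythroid and 5 of the epithelial markers lay below the median on both arrays. The mean of 7 B cell markers was 4.91 to 4.97 in cDC1 and 5.16 to 5.32 in the cDC2 populations.

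Splenic cDC1 take up dead cells and present their antigens to CD8 T cells, whereas cDC2 mainly serve CD4 T cells. The best-known cDC1 genes encode receptors such as Xcr1, Clec9a and Tlr3. The genes described here encode enzymes of protein and lipid chemistry (P3h2, Pdia5, Naaa, Plpp1, Akr1b8) and surface proteins (Hepacam2, Gpr141b). The others encode a signalling adaptor (Gcsam), a membrane-traffic protein (Snx22) and an apolipoprotein L (Apol7c). RNA from bulk sorted cells cannot tell fewer expressing cells from less RNA per cell.

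In all 10 genes both cDC1 arrays lay above all 4 cDC2 arrays, which 17.5% of all genes do. In 9 of the 10 the mean excess was at least 2 on the log2 scale over each cDC2 population, which 85 of 19938 genes reach (0.426%), and in 7 it was at least 4, which 16 genes reach (0.0802%). These shares restate how the genes were chosen. Snx22 is the exception, as its probe set does not show a large cDC1 excess. That probe set lay below the array median in cDC1 too, so its reading does not limit the difference in RNA. Levels are log2 intensities, given for both arrays of each population. Levels of different probe sets are not comparable, so only differences are set side by side. The 25th percentile of all probe sets lay at 3.72 (mean over arrays). No detection calls were used, and that level is a chosen mark, not a measured limit of detection. A difference from a group with both arrays below it is read here as a lower bound. Where 1 array of a group lay below it, as for Apol7c and Gpr141b, the difference may be a lower bound too.

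**Figure D1:**
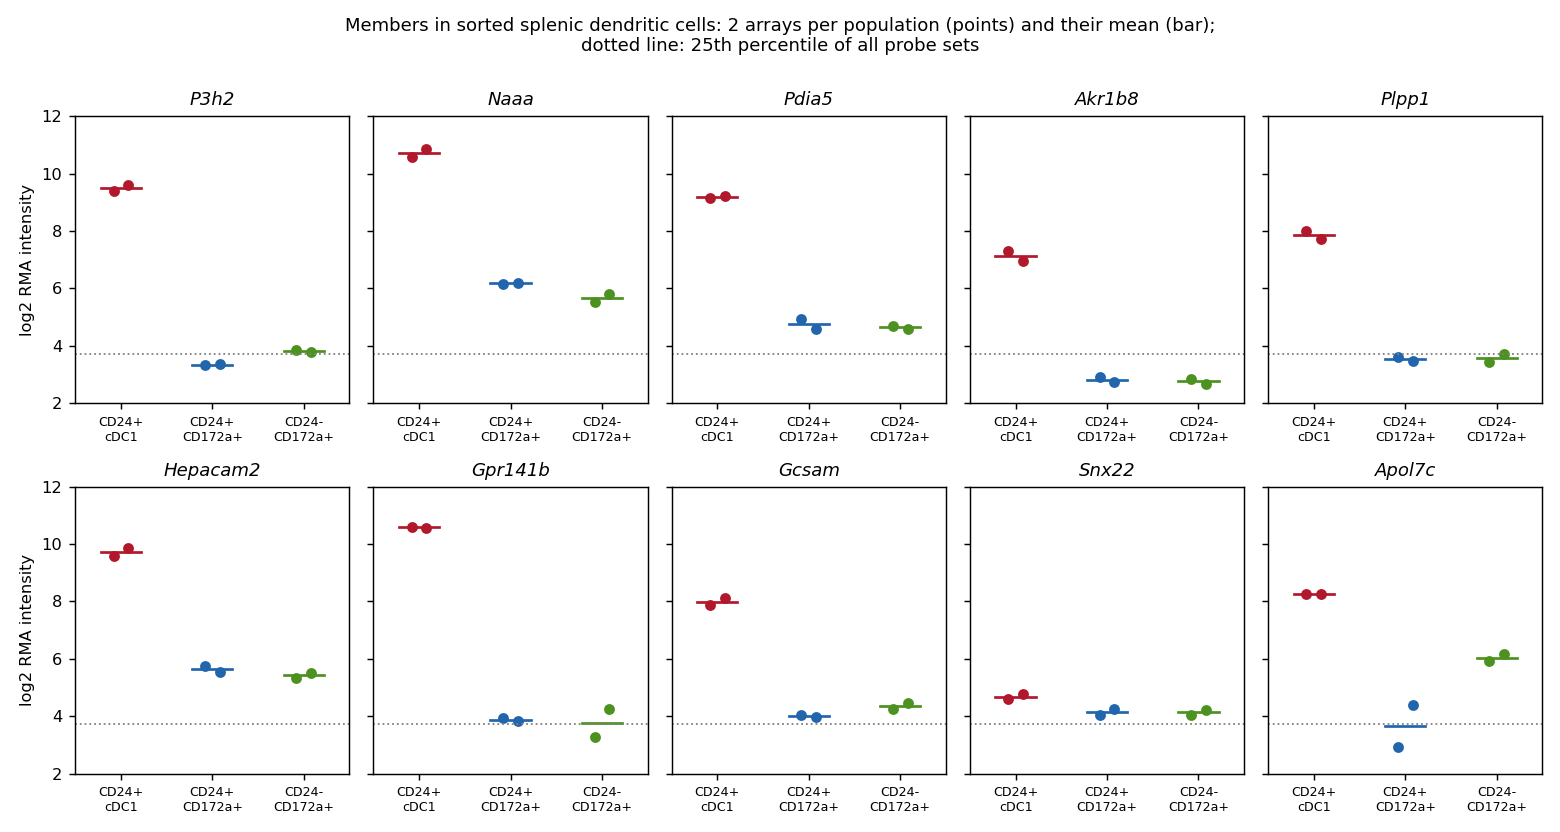
Log2 RMA intensity of the 10 genes, 1 panel each, in each sorted population: cDC1 (CD24+) on the left, then the cDC2 with and without CD24. Points are arrays, bars are means of 2 arrays, and the dotted line is the 25th percentile of all probe sets (3.72). The cDC1 points stand apart in every panel except that of Snx22, where the gap is small, and Apol7c shows a step between the 2 cDC2 populations.

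The first group are enzymes that modify or fold proteins. P3h2 encodes a prolyl 3-hydroxylase of the endoplasmic reticulum that acts on collagen chains. It read 9.39 and 9.59 in cDC1, 3.34 and 3.35 in CD24+CD172a+ cDC2, and 3.85 and 3.77 in CD24-CD172a+ cDC2. Both cDC2 populations thus lay near the 25th percentile, and both arrays of the first lay below it. The cDC1 mean exceeded them by 6.14 ± 0.13 and 5.68 ± 0.13 (log2, standard error), 70.7-fold and 51.2-fold, the former a lower bound.

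Pdia5 encodes a protein disulfide isomerase, an enzyme that makes and rearranges disulfide bonds in the endoplasmic reticulum. Its levels were 9.16 and 9.21 in cDC1, 4.95 and 4.60 in CD24+CD172a+ cDC2, and 4.69 and 4.59 in CD24-CD172a+ cDC2. The cDC2 arrays overlapped with each other, and cDC1 stood 21.2-fold and 23.3-fold above them.

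The lipid enzymes come next. Naaa encodes the lysosomal acid amidase that cleaves N-acylethanolamines such as palmitoylethanolamide. It read 10.56 and 10.84 in cDC1, 6.16 and 6.19 in CD24+CD172a+ cDC2, and 5.52 and 5.79 in CD24-CD172a+ cDC2. Unlike P3h2, it lay above the array median in all 4 cDC2 arrays, so its excess in cDC1 (23.0-fold and 33.1-fold) was measured on both sides.

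Plpp1 encodes a phospholipid phosphatase of the plasma membrane that removes phosphate from lipids such as lysophosphatidic acid. Its levels were 8.0 and 7.71 in cDC1, 3.62 and 3.46 in CD24+CD172a+ cDC2, and 3.45 and 3.71 in CD24-CD172a+ cDC2. All 4 cDC2 arrays were below their 25th percentile, so the differences of 4.31 ± 0.15 and 4.27 ± 0.15 are lower bounds.

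Akr1b8 encodes an aldo-keto reductase, which reduces aldehydes with NADPH. It read 7.29 and 6.94 in cDC1, 2.91 and 2.74 in CD24+CD172a+ cDC2, and 2.86 and 2.68 in CD24-CD172a+ cDC2. Here too all cDC2 arrays were below the 25th percentile and overlapped between the populations, and the differences of 4.29 ± 0.15 and 4.35 ± 0.15 are lower bounds.

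Among the surface proteins, Hepacam2 encodes an immunoglobulin-type membrane protein. Its levels were 9.60 and 9.87 in cDC1, 5.76 and 5.56 in CD24+CD172a+ cDC2, and 5.35 and 5.50 in CD24-CD172a+ cDC2. The cDC2 values lay above the array median, and cDC1 stood 16.9-fold and 19.8-fold above them. Hepacam2 is also known from secretory and tuft epithelium. Of 7 markers of such epithelium, Epcam and Trpm5 among them, none was called in any of the 3 comparisons (limma; 0 also at an unadjusted p under 0.05), and their mean level was 4.45 to 4.53 in cDC1 and 4.42 to 4.59 in the cDC2 arrays.

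Gpr141b encodes an orphan G protein-coupled receptor. It read 10.59 and 10.57 in cDC1, 3.93 and 3.84 in CD24+CD172a+ cDC2, and 3.29 and 4.27 in CD24-CD172a+ cDC2. The cDC1 arrays agreed closely (SD 0.01), while the CD24-CD172a+ arrays spread around the 25th percentile (SD 0.69). The differences were 6.70 ± 0.25 and 6.80 ± 0.25, or 104-fold and 111-fold. The second was 6.31 without CD24-CD172a+ replicate 1, the array below the 25th percentile, and 7.29 without its replicate 2.

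Gcsam encodes an adaptor protein that carries signalling motifs and is known from germinal centre B cells, where it restrains cell movement. Its levels were 7.87 and 8.12 in cDC1, 4.03 and 3.98 in CD24+CD172a+ cDC2, and 4.24 and 4.45 in CD24-CD172a+ cDC2, a 15.9-fold and 12.6-fold excess. Of 8 measured genes of the germinal centre programme, Bcl6 and S1pr2 among them, Gcsam's direction was met by 1 against CD24-CD172a+ cDC2, Arhgef11 (0.44 ± 0.13, adjusted p = 0.0471), a call that all 6 fits with 1 array left out lost. Against CD24+CD172a+ cDC2 none was higher, and the kinase gene Syk was lower in cDC1 in both comparisons (-1.48 ± 0.15 and -1.31 ± 0.15, adjusted p = 4.88e-05 and 0.000124).

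Snx22 encodes a sorting nexin, a protein with a phosphoinositide-binding domain that acts in endosomal traffic. It read 4.59 and 4.79 in cDC1, 4.06 and 4.24 in CD24+CD172a+ cDC2, and 4.06 and 4.23 in CD24-CD172a+ cDC2. Even in cDC1 it lay below the array median, and its excess was 1.45-fold over each cDC2 population (0.54 ± 0.14 for both). An excess at least this large over both is shared by 926 genes.

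Apol7c encodes an apolipoprotein L, a family of pore-forming proteins. Apol7c has been linked to the rupture of phagosomes and to cross-presentation in cDC1. It read 8.25 and 8.25 in cDC1, 2.92 and 4.39 in CD24+CD172a+ cDC2, and 5.92 and 6.17 in CD24-CD172a+ cDC2. The 3 populations did not overlap, and CD24-CD172a+ cDC2 lay between the other two. Its excess in cDC1 was 4.60 ± 0.35 on the log2 scale (24.2-fold) over CD24+CD172a+ cDC2 and 2.21 ± 0.35 (4.62-fold) over CD24-CD172a+ cDC2. The first value was 3.87 without CD24+CD172a+ replicate 1 (2.92) and 5.33 without its replicate 2 (4.39).

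Stretches upstream of 8 of the 10 genes were found in RefSeq's table for GRCm38.p6; P3h2 and Plpp1 had none there. The 250 bases before each start site were searched on both strands for 4 motifs: TGANTCA (bound by AP-1 factors such as BATF3), the IRF repeat (GAAA, any 2 bases, GAAA, bound by interferon regulatory factors), the ETS-IRF element (GGAA, any 2 bases, GAAA, bound by ETS and interferon regulatory factors together) and GAGGAA (a core bound by PU.1). These motifs were looked for because BATF3, IRF8 and PU.1 act in cDC1. Gpr141b and Apol7c held the IRF repeat, which 2.98% of 32851 such stretches hold, and their sequences are shown for that reason, 5′ to 3′ on the strand of the gene with the repeat in capitals. The stretches are chr13:19732952-19733201 and chr15:77533316-77533565, both of the minus strand.
Gpr141b: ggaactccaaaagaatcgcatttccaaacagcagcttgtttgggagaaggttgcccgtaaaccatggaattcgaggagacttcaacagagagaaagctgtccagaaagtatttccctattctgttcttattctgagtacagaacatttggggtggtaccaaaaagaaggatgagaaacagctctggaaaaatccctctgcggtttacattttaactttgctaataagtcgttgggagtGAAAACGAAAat
Apol7c: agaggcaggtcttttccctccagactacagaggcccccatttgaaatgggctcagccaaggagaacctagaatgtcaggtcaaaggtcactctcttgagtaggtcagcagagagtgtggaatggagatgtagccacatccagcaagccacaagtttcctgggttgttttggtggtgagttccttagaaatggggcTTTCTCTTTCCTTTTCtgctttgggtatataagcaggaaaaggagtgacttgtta

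In Gpr141b the repeat lies on the gene's strand, from 12 to 3 bases before the start. In Apol7c 2 copies lie on the other strand, at 55 to 46 and 49 to 40 bases before the start, and share their middle letters. Gcsam held GAGGAA at 2 places, as 23.3% of all stretches hold it at least at 1. TGANTCA and the ETS-IRF element were found in 0 of the 8 genes, against 6.75% and 2.30% of all stretches. A match describes letters, and the absence of a match holds for this window alone. The 8 genes had no common base composition: the share of G and C ran from 40.4% (Hepacam2) to 63.6% (Snx22), around a median of 52.4% over all stretches.

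The comparison of the cDC2 populations asks whether these genes, each lower in cDC2 than in cDC1, differ between cDC2 with and without CD24. Of the 10 genes, 1 passed limma's test at an adjusted p under 0.05, against 1.46% of all genes, and 5 did not overlap between the 2 populations, against 44.2% of all genes, so the second share is near the background. Over all genes 0.808% were higher and 0.652% lower in CD24+CD172a+ cDC2 (161 and 130 genes). With cyclic loess normalisation these were 126 and 160. The median difference of the 10 genes was 0.03 and that of all genes -0.01.

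Apol7c was the gene that passed, and it fell by 2.39 ± 0.35 on the log2 scale in CD24+CD172a+ cDC2 (5.24-fold lower, 95% interval -3.16 to -1.62, limma, adjusted p = 0.0105). The error and interval use 1 variance for the 3 populations. The SDs were 0.0 in cDC1, 1.04 in CD24+CD172a+ and 0.18 in CD24-CD172a+ cDC2. The error and interval thus understate the spread of the CD24+CD172a+ arrays, as does the error of the cDC1 excess over that population. Both CD24+CD172a+ arrays lay below both CD24-CD172a+ arrays, and the CD24+CD172a+ arrays lay far apart, with the one at 2.92 below the 25th percentile. The size of the difference rests on them: it was -1.66 without CD24+CD172a+ replicate 1, the dim array, and -3.12 without its replicate 2. Each of these 2 fits leaves 1 array in that population and loses its spread (SD 1.04). Neither can therefore show whether the call holds. For this comparison, the fit of the 2 groups alone and the 2 fits without a cDC1 array are the same test. Counting each of them, the call was kept in 16 of 18 alternative analyses, the 2 fits without a CD24+CD172a+ replicate among them. It ended without replicate 1 of CD24-CD172a+ cDC2 (-2.51, adjusted p = 0.0562) and without its replicate 2 (-2.27, adjusted p = 0.0722).

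The other 9 genes differed by -0.46 to 0.52 and were not called. In simulated data the same fit recovered 8.51% of log2 changes of 0.5 and 85.4% of changes of 1. A gene not called is therefore not shown to be equal between the populations. P3h2 differed by -0.46 (95% interval -0.76 to -0.17, adjusted p = 0.136) and Naaa by 0.52 (0.19 to 0.85, adjusted p = 0.140), in opposite directions. Gcsam differed by -0.34 (-0.66 to -0.03, adjusted p = 0.315) and Hepacam2 by 0.23 (-0.09 to 0.55, adjusted p = 0.525). P3h2, Naaa and Gcsam have intervals that leave out 0 before adjustment over all genes. The remaining intervals were -0.19 to 0.46 for Pdia5, -0.29 to 0.39 for Akr1b8, -0.38 to 0.30 for Plpp1, -0.45 to 0.66 for Gpr141b and -0.31 to 0.32 for Snx22. For Akr1b8 and Plpp1, with all cDC2 arrays below the 25th percentile, and for P3h2, with both CD24+CD172a+ arrays below it, such intervals describe dim readings and do not limit the difference in RNA.

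**Figure D2:**
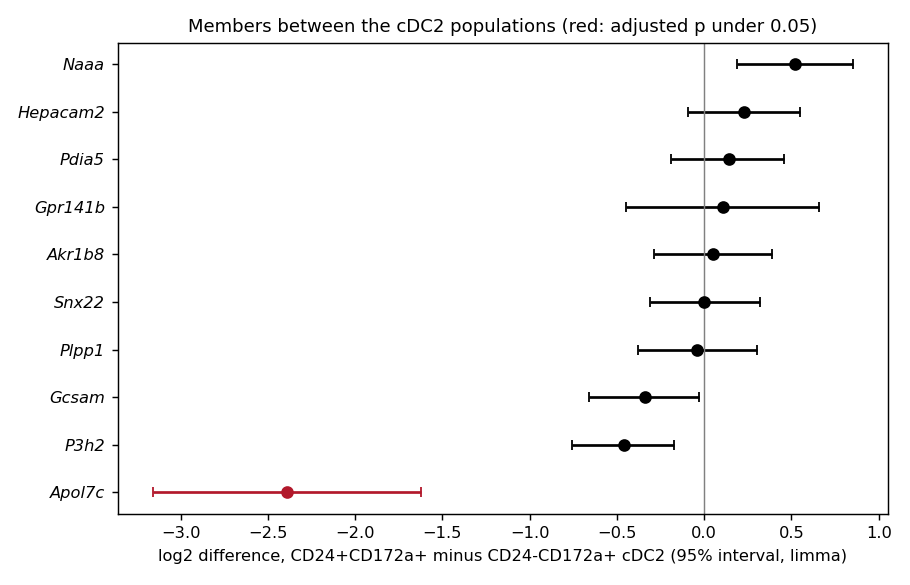
Log2 difference of each of the 10 genes between the cDC2 populations, CD24+CD172a+ minus CD24-CD172a+, with the 95% interval from limma (n = 2 arrays per population). Apol7c, in red, lies at -2.39, and the other 9 lie between -0.46 and 0.52.

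Markers of other cells moved in this comparison too. Of 10 monocyte and macrophage markers, such as Adgre1 and C1qa, 5 were lower in CD24+CD172a+ cDC2 and none higher, and the mean level of the 10 was 5.53 to 5.67 there, 6.21 in both CD24-CD172a+ arrays and 5.51 to 5.63 in cDC1. On both arrays of a population, 5 of the 10 lay below the array median in the CD24+CD172a+ population, and 3 in the other cDC2. Of 6 plasmacytoid dendritic cell markers, 2 were higher in CD24+CD172a+ cDC2 (mean of the list 6.07 to 6.08, against 5.56 to 5.61), as were 2 of 7 neutrophil markers (4.34 to 4.56, against 3.83 to 3.96). Their part in the difference of Apol7c was not tested. The mean of the 10 cDC1 markers was 6.18 to 6.43 in cDC2 with CD24, and 6.33 to 6.45 in those without. Of these 10, 1 was higher in cDC2 with CD24, Cd8a (2.11 ± 0.19, adjusted p = 0.000925), and 2 were lower, Cadm1 (-0.84 ± 0.17, adjusted p = 0.0407) and Ly75 (-0.80 ± 0.16, adjusted p = 0.0415). Xcr1 differed by -0.74 ± 0.21 (adjusted p = 0.138), and the median of the 10 was -0.15. The part of these genes in the difference of Apol7c was not tested either. The 4 measured markers of migratory dendritic cells had a mean of 7.77 to 8.06 and 8.15 to 8.28 in these populations, with 1 of 4 lower in the first.

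Likeness was measured as the distance between log2 profiles over the 6 arrays, each centred on its gene's mean; it follows the size of the cDC1 excess, for which the genes were chosen. Pdia5, Akr1b8, Plpp1, Hepacam2 and Naaa had the same nearest pair of other genes, Clec9a, the receptor for dead cells, and Tlr3, the sensor of double-stranded RNA. Their distances ran from 0.282 (Plpp1 and Tlr3) to 0.870 (Naaa and Tlr3). Akr1b8 and Plpp1 lay 0.329 apart. P3h2 was nearest to the nucleotide-sugar receptor gene P2ry14 (0.832) and to Xcr1 (1.04), and Gpr141b to Ifi205 (0.537). Gcsam was nearest to Rab7b (0.520), a GTPase of late endosomes, and to Slco3a1 (0.556), a transporter. Snx22 lay 3.81 from its closest fellow gene, Gcsam, and 0.102 from Spint2, a gene with a small cDC1 excess (0.54 and 0.61).

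The nearest genes to Apol7c were Il12b, the p40 subunit of interleukin 12 (1.34), and Treml4, a receptor of the TREM family (1.52). Il12b read 10.52 and 10.72 in cDC1, 6.85 and 7.01 in CD24+CD172a+ cDC2, and 8.66 and 8.64 in CD24-CD172a+ cDC2. Treml4 read 8.93 and 9.21, 5.35 and 5.74, and 6.62 and 6.92 in the same order. In both, as in Apol7c, CD24-CD172a+ cDC2 lay between the other populations on every array. Both were picked for nearness to Apol7c over these same arrays, so the shared order restates that choice.

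**Figure D3:**
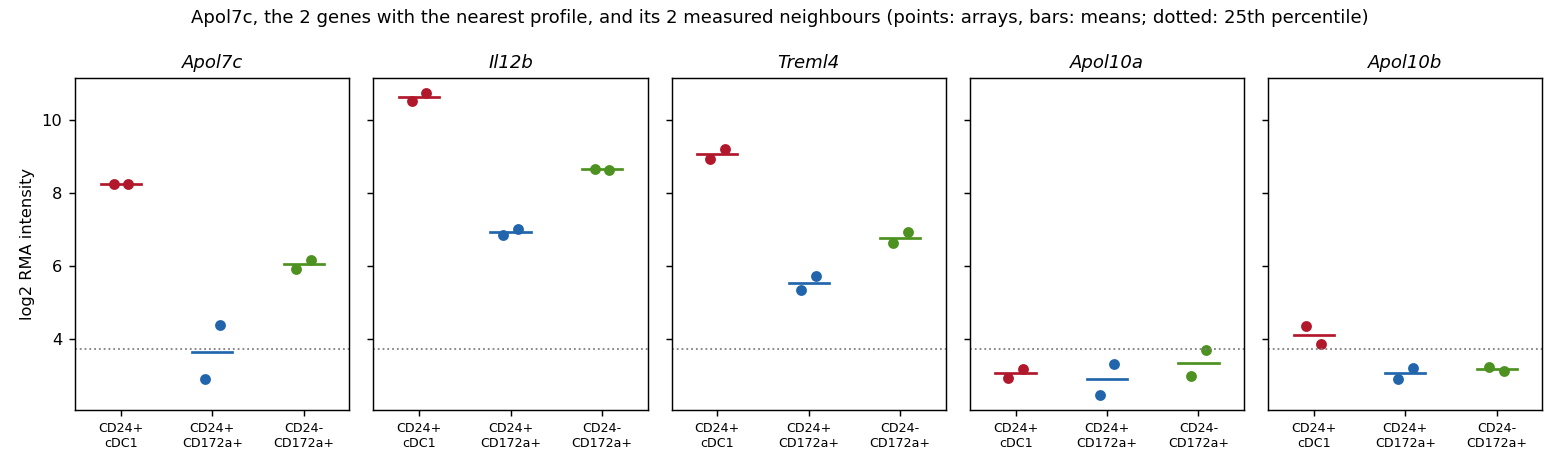
Log2 RMA intensity by array (points, with the mean of 2 arrays as a bar) of Apol7c, of Il12b and Treml4, whose profiles are nearest to it, and of Apol10a and Apol10b, its measured neighbours on the chromosome. The dotted line is the 25th percentile of all probe sets. The step between the cDC2 populations is seen in the first 3 panels, and the last 2 stay near or below the line.

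The families and pathways of the 10 genes were then read in the same fit, with the genes themselves left out. Of 152 such relatives, 137 were measured. In cDC1 32 were higher and 8 lower than in CD24+CD172a+ cDC2, 29.2% of the list together against 13.6% of all genes (6.52% higher and 7.11% lower). Against CD24-CD172a+ cDC2 37 were higher and 11 lower, 35.0% against 15.7% (8.91% higher and 6.83% lower). These 2 comparisons share the cDC1 arrays. Between the cDC2 populations 1 was higher and 3 were lower, 2.92% of the list together against 1.46% of all genes. These shares over all genes are the background for the single families below as well. The relatives were listed by family, not by how they moved, but with earlier results of these data known.

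Protein disulfide isomerases and their folding partners, the relatives of Pdia5, made up 15 of the 32 and 15 of the 37 higher genes. Of 23 measured, 15 were higher in cDC1 than in each cDC2 population, none was lower and 8 were not called (median 0.64 and 0.79, against 0.03 and 0.00 for all genes). Pdia3, which acts in loading of MHC class I molecules, read 10.46 and 10.39 in cDC1 and 8.88 to 9.29 in the cDC2 arrays (1.28 ± 0.16 and 1.34 ± 0.16, adjusted p = 0.000273 and 0.000199). Ero1a, the oxidase that recharges these enzymes, rose by 1.31 ± 0.13 and 1.27 ± 0.13 (adjusted p = 6.06e-05 and 8.11e-05), Erp44 by 1.22 ± 0.13 and 1.39 ± 0.13, and Pdia4 by 1.16 ± 0.13 and 1.78 ± 0.13. These differences are smaller than that of Pdia5 itself (4.41 and 4.54). The chaperone gene Hspa5 (0.24 and 0.15) and the stress regulators Atf6 (0.14 and 0.08) and Xbp1 (0.37 and -0.04) were not called. With 1 array left out, the count of 15 against CD24+CD172a+ cDC2 became 9 without CD24+CD172a+ replicate 1 and 10 without cDC1 replicate 2; the counts in the other fits of that comparison ran from 12 to 15. None of the 23 was called between the cDC2 populations (limma, with 5 at an unadjusted p under 0.05). In the alternatives that do not leave 1 array out, 0 to 2 of them were called higher in CD24+CD172a+ cDC2 and none lower.

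**Figure D4:**
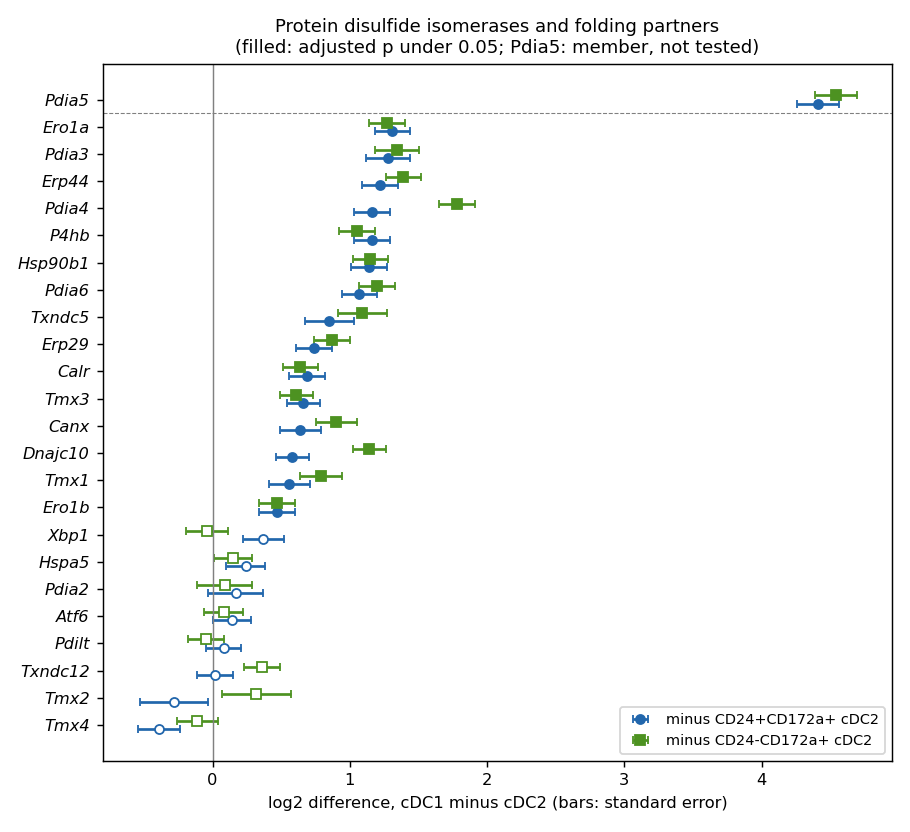
Log2 difference of cDC1 from each cDC2 population, with standard errors, for 23 protein disulfide isomerases and folding partners and, above the dashed line, for Pdia5. Blue circles are against CD24+CD172a+ and green squares against CD24-CD172a+ cDC2; filled symbols passed the test, except for Pdia5, which was chosen for this difference and not tested. The called differences lie between 0.47 and 1.78, and Pdia5 at 4.41 and 4.54.

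In the pathway of Naaa, 4 of 17 genes were higher in cDC1 than in CD24+CD172a+ cDC2 and none lower, and 3 were higher and 1 lower than in CD24-CD172a+ cDC2. The 1 lower gene was Cnr2, whose call ended without cDC1 replicate 2 or CD24-CD172a+ replicate 1 (adjusted p = 0.0611 and 0.0642). Its call as higher in cDC1 than in CD24+CD172a+ cDC2 ended without any 1 of the 4 arrays of these populations (adjusted p = 0.0692 to 0.0990). Plaat3, a phospholipase and acyltransferase of this pathway, read 7.45 and 7.64 in cDC1, 5.21 and 5.17 in CD24+CD172a+ cDC2, and 5.63 and 5.95 in CD24-CD172a+ cDC2. It was higher in cDC1 by 2.36 ± 0.15 and 1.76 ± 0.15 (adjusted p = 1.69e-06 and 1.46e-05). Asah1, the acid ceramidase and the closest relative of Naaa, was higher by 1.45 ± 0.14 and 1.24 ± 0.14, and Asah2 by 0.93 ± 0.15 and 0.98 ± 0.15. Cnr2, a cannabinoid receptor gene, lay highest in CD24-CD172a+ cDC2 (5.30 and 5.12) and fell by 1.15 ± 0.13 in CD24+CD172a+ cDC2 (4.04 and 4.08, adjusted p = 0.00354), a call that ended without CD24+CD172a+ replicate 1 (adjusted p = 0.0580).

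In the family of Plpp1 and the lysophosphatidic acid pathway, 4 of 21 genes were higher in cDC1 than in CD24+CD172a+ cDC2 and none lower. Against CD24-CD172a+ cDC2 4 were higher and 3 lower. Lpar6, a receptor for lysophosphatidic acid, read 9.38 and 9.42 in cDC1, 6.33 and 5.94 in CD24+CD172a+ cDC2, and 6.82 and 7.11 in CD24-CD172a+ cDC2 (3.26 ± 0.16 and 2.43 ± 0.16, adjusted p = 3.47e-07 and 2.94e-06). Lpin1, a phosphatidate phosphatase, was higher by 1.48 ± 0.15 and 1.13 ± 0.15. Of the other Plpp genes, Plpp2, Plpp3, Plpp4, Plpp6 and Plpp7 were not called in either comparison, though Plpp2 and Plpp6 were in some alternatives. Plpp5 was higher by 0.51 ± 0.14 and 0.54 ± 0.14, and it kept these calls in 14 and 13 of 18 alternative analyses. In the fits with 1 array left out, Plpp5 kept these calls in 2 and 3 of 6. The counts against CD24-CD172a+ cDC2 became 2 higher without CD24-CD172a+ replicate 2 and 1 lower without cDC1 replicate 1. Between the cDC2 populations Lpar6 was the 1 gene of this list called (-0.83 ± 0.16, adjusted p = 0.0407), a call that all 6 fits with 1 array left out lost.

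Sorting nexins, the family of Snx22, went both ways. Of 29 measured, 5 were higher and 5 lower in cDC1 than in CD24+CD172a+ cDC2, and 7 were higher and 5 lower than in CD24-CD172a+ cDC2. With 1 array left out these became 4 to 5 higher and 3 to 6 lower, and 4 to 5 higher and 3 to 5 lower, with the lowest count of lower genes without cDC1 replicate 1 in both. Snx24 read 7.08 and 6.60 in cDC1 and 4.07 to 4.40 in the 4 cDC2 arrays (2.56 ± 0.18 and 2.60 ± 0.18, adjusted p = 3.69e-06 and 3.17e-06), an excess well above that of Snx22 in the same fit. Snx10 and Snx2 were higher too, by 1.34 ± 0.12 and 1.0 ± 0.13 against CD24+CD172a+ cDC2. Snx10 was lower in CD24+CD172a+ than in CD24-CD172a+ cDC2 (-0.59 ± 0.12, adjusted p = 0.0499), a call that all 6 fits with 1 array left out lost. In the other direction, Snx18 was lowest in cDC1 (5.09 and 5.01) and rose by 0.87 ± 0.12 from CD24-CD172a+ (5.91 and 5.87) to CD24+CD172a+ cDC2 (6.74 and 6.78, adjusted p = 0.00973). That last call ended without either CD24+CD172a+ replicate or CD24-CD172a+ replicate 2 (adjusted p = 0.0989, 0.0921 and 0.0562).

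The collagen-modifying relatives of P3h2 showed no shared excess. Of 16 genes, 1 was lower in cDC1 than in CD24+CD172a+ cDC2, P3h1 (-0.65 ± 0.13, adjusted p = 0.00668), and none was higher. Against CD24-CD172a+ cDC2 2 were higher, Crtap (1.02 ± 0.27, adjusted p = 0.0256) and Ppib (0.46 ± 0.13, adjusted p = 0.0420), which encode partners of P3h1. P3h1, the prolyl 3-hydroxylase of the same family, thus went against P3h2 in the first comparison. This call was lost when CD24+CD172a+ replicate 1 was left out (adjusted p = 0.0510) and was kept in the other 17 of 18 analyses. The call of Crtap ended without either cDC1 replicate or CD24-CD172a+ replicate 2 (adjusted p = 0.0857, 0.124 and 0.166), and that of Ppib was kept in 9 of 18 analyses and in none with 1 array left out.

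Several relatives are also chromosomal neighbours, so the nearest measured protein-coding gene on each side was read for all 10. Of these 20 neighbours, 5 were higher and 1 lower in cDC1 than in CD24+CD172a+ cDC2, beside 6.52% and 7.11% of all genes. Against CD24-CD172a+ cDC2 7 were higher and 1 lower, beside 8.91% and 6.83% of all genes. Gpr141, the paralog beside Gpr141b on chromosome 13, had the opposite pattern. It read 5.05 and 4.78 in cDC1, 5.87 and 6.44 in CD24+CD172a+ cDC2, and 6.45 and 6.94 in CD24-CD172a+ cDC2. It was lower in cDC1, with differences of -1.24 ± 0.21 and -1.77 ± 0.21 (adjusted p = 0.00266 and 0.000223), and both calls were kept in all 18 alternative analyses run.

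Akr1b10, beside Akr1b8 on chromosome 6, went the same way as its paralog. It read 6.76 and 6.27 in cDC1 and 4.30 to 4.80 in the cDC2 arrays (2.17 ± 0.19 and 1.91 ± 0.19, adjusted p = 1.79e-05 and 4.83e-05). The sequences of these paralogs are alike, and whether their probe sets share signal was not tested. Of the 14 aldo-keto reductases measured, 3 were higher in cDC1 than in CD24+CD172a+ cDC2 and 4 than in CD24-CD172a+ cDC2, and none was lower. The count of 3 became 1 without cDC1 replicate 1 or either CD24+CD172a+ replicate, and that of 4 became 2 without cDC1 replicate 1 or CD24-CD172a+ replicate 1.

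Apol10b, beside Apol7c on chromosome 15, read 4.37 and 3.87 in cDC1 and 2.91 to 3.24 in the cDC2 arrays, all of these below the 25th percentile, so its differences of 1.06 ± 0.18 and 0.94 ± 0.18 (adjusted p = 0.00234 and 0.00470) are lower bounds. It was the 1 of 7 measured apolipoprotein L relatives that was called in either comparison. The others differed by -0.14 to 0.33 and -0.36 to 0.37 from the cDC2 populations: Apol6, Apol7a, Apol7d, Apol8, Apol10a and Apold1. Between the cDC2 populations none of the 7 was called (limma; 2 at an unadjusted p under 0.05), with differences from -0.53 (Apold1) to 0.29 (Apol7a). The remaining family members listed have no probe set with their symbol alone in the table and were not used here.

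Of the neighbours outside the families, Cldn1, a tight-junction claudin beside P3h2 on chromosome 16, was higher in cDC1 by 1.72 ± 0.14 and 2.47 ± 0.14 (adjusted p = 1.36e-05 and 8.92e-07). Sdad1, beside Naaa on chromosome 5, was higher by 1.73 ± 0.13 and 2.23 ± 0.13 (adjusted p = 6.11e-06 and 8.92e-07), and Ppef2, on the other side of Naaa, by 0.61 ± 0.17 and 0.63 ± 0.17 (adjusted p = 0.0354 and 0.0275). Ppib and Snx1 flank Snx22 on chromosome 9 and had differences of 0.31 and 0.46 (Ppib) and 0.48 and 0.56 (Snx1), beside 0.54 and 0.54 for Snx22 itself, and were called against CD24-CD172a+ cDC2 alone. The call of Snx1 was kept in 14 of 18 analyses. The neighbours of Pdia5, Plpp1, Hepacam2 and Gcsam differed by -0.40 to 0.20 in the comparisons with cDC1 and were not called (limma), the lowest adjusted p being 0.0740 for Slc38a9 beside Plpp1. Hepacam, the paralog of Hepacam2 elsewhere in the genome, differed by 0.04 and 0.00.

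**Figure D5:**
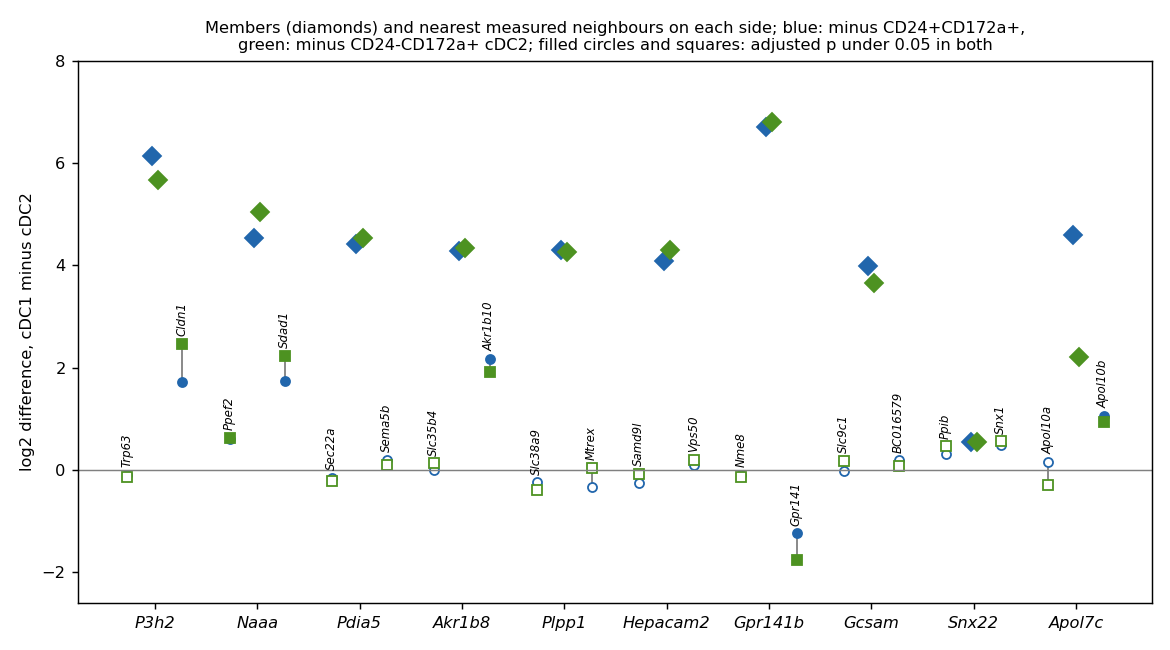
Log2 difference of cDC1 from CD24+CD172a+ cDC2 (blue) and from CD24-CD172a+ cDC2 (green) for each of the 10 genes (diamonds, not tested) and its nearest measured protein-coding gene on each side (circles and squares, filled where the adjusted p was under 0.05 in both). Cldn1, Sdad1, Ppef2, Akr1b10 and Apol10b lie above 0 in both and Gpr141 below.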

How the data were processed

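RNA from the sorted cells was extracted on columns, made into biotinylated cDNA with the Affymetrix WT Pico kit and hybridised to Affymetrix arrays, per the labels' protocols. The authors deposited linear intensities after RMA in Affymetrix Expression Console, per the submitters' processing notes; versions are not given in the sources used here. RMA makes the arrays' distributions alike, so a shift of most genes would not be seen.

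Here log2 of the intensity was taken. Of 28853 probe sets, 21789 carry 1 symbol, 1621 several and 5443 none; the brightest single-symbol probe set stood for each of 19938 genes. A linear model was fitted in limma 3.58.1 (R 4.3.3; empirical Bayes variance, 1 fit of 6 arrays, Benjamini-Hochberg over all genes, adjusted p under 0.05), which gave differences, standard errors and 95% intervals; the script was tested on simulated data. The number of arrays limits the precision. The 10 genes, the lists and the alternatives were chosen with earlier results of these data known. Named were all 10 genes and up to 4 called genes of each list and comparison by size of difference. Every measured apolipoprotein L gene, the 2 nearest profiles and the nearest measured neighbours in GRCm38.p6 were named too. Where this rule does not give them, further genes were added after their values were seen. They are Plpp5, Ppib, Arhgef11, Snx2, Batf3, Cd8a, Cadm1, Ly75 and the genes named as not called (Hspa5, Atf6, Xbp1, Plpp2, Plpp3, Plpp4, Plpp6 and Plpp7). Alternatives changed the filter, probe set choice, normalisation, offset, variance model, arrays in the fit and the replicate block.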

Additional observations from a re-analysis of the deposited data

How the results depend on the processing

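Results were recomputed under 18 alternatives, 6 of which leave out 1 array. Genes that a filter on dim genes removes, Snx22 and Apol10b among them, have 17 or 16. The alternatives are not 18 separate checks. For each comparison, 2 of the 6 fits drop an array of the population outside it. These give the same result as the fit of the 2 groups alone, so each tally counts that result repeatedly. Genes called between the cDC2 populations numbered 291, and 464 without genes below the median, 464 with an intensity trend and robust variance, 187 with the 2 groups compared alone, and 20 to 187 with 1 array left out (20 without CD24+CD172a+ replicate 1, 44 without its replicate 2). Their relatives called numbered 4, and 9 without genes below the median, 2 with all probe sets, 2 with the 2 groups alone, and 0 to 2 with 1 array left out. Calls of cDC1 ran from 1781 to 2769 against CD24+CD172a+ and from 1922 to 2839 against CD24-CD172a+ cDC2 with 1 array left out (2718 and 3137 with all). Plpp1 between the cDC2 populations turned from -0.04 to 0.04 (0.039) after a second quantile normalisation. With 1 array left out this small difference ran from -0.172 to 0.092 for Plpp1, -0.036 to 0.313 for Pdia5, -0.034 to 0.140 for Akr1b8, -0.089 to 0.095 for Snx22 and -0.384 to 0.594 for Gpr141b, so none of these has a settled direction. Adding 16 before the log reduced each cDC1 excess of the 10 genes, as that offset must for low values.

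The replicate numbers 1 and 2 recur in each population, but the labels do not say that they pair the arrays, and deviations of same-numbered arrays correlated at 0.0242 to 0.0838. With the replicate number as a block, 411 genes were called between the cDC2 populations, Apol7c with an adjusted p of 0.00178 (limma), and 2918 and 3323 in the comparisons with cDC1. The cDC2 levels near the dim end of the arrays limit how far the excess of P3h2, Plpp1, Akr1b8, Gpr141b and Apol7c can be measured. Without detection calls the same may hold for Gcsam, Pdia5 and Snx22, whose cDC2 levels lay below or near the array median.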
